A study of Mus musculus with 2 samples.

Results

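The 10 genes *Pf4*, *Ppbp*, *Gp5*, *Gp9*, *Gp1bb*, *Itga2b*, *Itgb3*, *Plek*, *Rab27b* and *Nrgn* were followed through the spliced and unspliced counts of a mouse embryo chimera experiment, together with the cells that co-expressed them. The genes were taken by name as known genes of platelets and megakaryocytes, and are 10 of the 29453 genes in the count tables. A cell was called co-expressing when at least 3 of the 10 genes had at least 1 spliced UMI (a unique molecular identifier, which counts 1 captured transcript). This held for 341 of 8566 tdTom+ cells and for 180 of 8712 tdTom- cells. Over both libraries 9 of the 10 genes had at least 20 spliced UMIs, and *Ppbp* had 8 in tdTom+ and 1 in tdTom- cells.

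Embryonic stem cells (ESCs) in which CRISPR had placed a 38 bp frameshift mutation in exon 4 of *Gata1* were injected into wildtype C57BL/6 blastocysts, and the chimeric embryos were taken during early organogenesis. The tdTom+ fraction held the progeny of these *Gata1*- ESCs, which came from 1 male clone and carried a tdTomato reporter expressed from the ROSA26 locus in every cell. The tdTom- fraction held the wildtype cells of the host, with no targeted allele and no reporter. Cells of 6 embryos were pooled and flow-sorted on tdTomato, and each fraction gave 1 droplet-based library, for which the labels give E8.5 (tdTom+) and E8.6 (tdTom-). There is thus no replicate check of any difference between the fractions, no test between them was run, and *Gata1* genotype, clone, sex and library cannot be told apart. All 95% intervals given here cover counting error only.

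Megakaryocytes are the large precursors of platelets. They store chemokines in granules, carry adhesion receptors for von Willebrand factor and fibrinogen on their surface, and release platelets that plug damaged vessels. In the mouse embryo the earliest megakaryocytes arise in the yolk sac beside primitive erythroid cells, and GATA1, acting with FOG1 and with ETS factors such as FLI1, is known to drive late megakaryocyte genes.

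To show the DNA that such factors could read, the 250 bases before the start site are printed for the 4 members whose window held a match and met no annotated exon. Windows came from the RefSeq promoter table (GRCm38.p6), which held 8 of the 10 genes. A GATA match was AGATAA or AGATAG or TGATAA or TGATAG and an ETS match was AGGAAG or CGGAAG or AGGAAA or CGGAAA, on either strand, and capitals mark the matches. *Pf4* (chr5:90772185-90772434, plus strand) had 1 ETS match 9 bases before the start, *Gp5* (chr16:30310782-30311031, minus strand) 3 GATA matches 115, 93 and 77 bases before it and 1 ETS match at 48, *Gp9* (chr6:87777820-87778069, plus strand) 2 overlapping ETS matches at 20 and 16, and *Plek* (chr11:17008719-17008968, minus strand) 1 ETS match at 90. The *Plek* window stands before the start that RefSeq gives, which lies inside the longer span of the gene in the gene models used here.
Pf4: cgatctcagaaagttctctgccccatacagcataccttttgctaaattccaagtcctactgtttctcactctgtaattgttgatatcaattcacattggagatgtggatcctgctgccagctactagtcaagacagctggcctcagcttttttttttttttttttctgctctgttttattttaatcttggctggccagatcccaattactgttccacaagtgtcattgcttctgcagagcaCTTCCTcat
Gp5: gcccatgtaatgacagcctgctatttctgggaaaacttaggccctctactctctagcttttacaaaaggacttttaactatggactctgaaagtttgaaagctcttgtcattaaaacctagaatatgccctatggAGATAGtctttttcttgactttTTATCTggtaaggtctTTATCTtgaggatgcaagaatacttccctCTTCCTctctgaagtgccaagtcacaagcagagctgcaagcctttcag
Gp9: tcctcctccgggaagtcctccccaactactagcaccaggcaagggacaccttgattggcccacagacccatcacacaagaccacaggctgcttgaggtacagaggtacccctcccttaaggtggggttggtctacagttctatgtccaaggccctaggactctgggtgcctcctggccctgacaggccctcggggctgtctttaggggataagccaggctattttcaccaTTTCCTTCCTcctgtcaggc
Plek: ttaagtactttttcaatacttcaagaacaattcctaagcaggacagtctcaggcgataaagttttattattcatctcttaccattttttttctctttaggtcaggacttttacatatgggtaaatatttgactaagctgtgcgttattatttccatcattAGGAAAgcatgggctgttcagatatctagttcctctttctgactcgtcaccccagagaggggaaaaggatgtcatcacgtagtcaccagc

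A GATA match was present in 2 of the 8 member windows, those of *Gp5* and *Gp1bb*, and in 26.5% of all 32841 windows of the same length. An ETS match was present in 6 of the 8 windows, against 57.2% of all windows. These matches describe letters in the window and carry no measurement of binding.

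In all 8981 tdTom+ and 9252 tdTom- barcodes were deposited, with 167940767 and 157174026 spliced UMIs, at medians of 17598 and 15996 per cell, and 18 barcode sequences occurred in both libraries. *Gata1* reached 6.73 CPM (1130 UMIs) in the tdTom+ and 29.3 CPM (4600 UMIs) in the tdTom- library, where CPM scales the counts to the summed spliced UMIs of the same cells. *Xist*, which a male clone should lack, reached 334 CPM in the tdTom- and 5.56 CPM in the tdTom+ cells that carried neural markers. Putative doublets (415 tdTom+ and 540 tdTom- barcodes, of which 35 and 27 were co-expressing) were left out of every result that is not given over all barcodes. The remaining cells were clustered without the 10 genes, and a cluster was named "X-like" where it raised 3 or more marker genes of that class by 2-fold or more over all other cells.

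Blood sub-clusters held 1621 tdTom+ and 1480 tdTom- cells, and most sub-clusters held cells of nearly 1 fraction. Of the tdTom- blood cells, 1391 were erythroid-like, 59 megakaryocyte-like and 29 myeloid-like. Of the tdTom+ blood cells, 3 were erythroid-like, 688 blood progenitor-like, 422 myeloid-like, 90 megakaryocyte-like and 418 lay in an unnamed sub-cluster led by *Slc32a1* and *Car2*. The megakaryocyte-like sub-cluster was led by *Fermt3*, *Gucy1a3*, *Was* and *Tgfb1*. It had 4 of 10 megakaryocyte markers raised (*Treml1*, *Fermt3*, *Rasgrp2* and *Nfe2*). It also raised 4 of 6 blood progenitor and 3 of 7 myeloid markers, and its leading gene *Fermt3* decided the name. The myeloid-like sub-cluster led by *Fcer1g* raised 7 of 7 myeloid markers, but also 4 of 10 megakaryocyte and 5 of 6 endothelial markers. The markers thus did not part these sub-clusters cleanly. The name holds better for its tdTom- cells: when the clustering was made finer, 54 of the 59 tdTom- cells but 1 of the 90 tdTom+ cells stayed megakaryocyte-like, while 56 tdTom+ cells joined a blood progenitor-like group led by *Gata2* and *Fgf3* and 31 joined another led by *Cdkn1a* and *Ccng1*.

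Over all barcodes, *Pf4* and *Plek* were more than 2-fold higher in the tdTom+ library, *Itgb3* and *Gp1bb* were higher by less, and *Itga2b* and *Gp5* were lower by less than 2-fold. A gene was called when it had at least 20 UMIs, a difference of at least 2-fold and a 95% interval of the log2 fold (tdTom+ over tdTom-) that excluded 0. Among the 9 members with enough UMIs, 2 were called higher, where 2.57% of all 16522 genes were, and 0 were called lower, where 3.23% of all genes were. The median log2 fold was 0.21 over these 9 members and -0.01 over all genes. In bulk sums of this kind, fewer cells of a type and less RNA per cell cannot be told apart.

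The granule chemokines differed in abundance. *Pf4*, which encodes platelet factor 4, a heparin-binding chemokine of the platelet alpha granule, lies on chr5:90772435-90773383 (GRCm38, plus strand, 3 exons). It had 404 UMIs (2.41 CPM) in tdTom+ and 168 UMIs (1.07 CPM) in tdTom- cells. The log2 fold was 1.17 (0.91 to 1.44). *Ppbp*, its neighbour at chr5:90768518-90770063 (plus strand, 3 exons), encodes pro-platelet basic protein, the precursor of further granule chemokines. With 8 and 1 UMIs it was near the limit of detection in both libraries, at a log2 fold of 2.90 with an interval from 0.01 to 8.38.

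The glycoprotein genes of the receptor for von Willebrand factor differed in direction in the whole libraries. *Gp5* (chr16:30307685-30310779, minus strand, 2 exons) encodes the outer subunit glycoprotein V and was covered by 40 tdTom+ and 65 tdTom- UMIs, at a log2 fold of -0.80 (-1.40 to -0.21). *Gp9* (chr6:87778072-87779768, plus strand, 2 exons), whose product glycoprotein IX is needed to bring the complex to the surface, had 88 and 93 UMIs and an interval that included 0 (log2 fold -0.18, -0.61 to 0.26). *Gp1bb* (chr16:18620317-18622403, minus strand, 2 exons), the beta chain of glycoprotein Ib, had 155 and 88 UMIs, a log2 fold of 0.72 (0.33 to 1.12). The *Gp1bb* gene overlaps *Sept5* and *Gm49601* on the same strand, so its counts are uncertain: 40.0% of its tdTom+ and 58.0% of its tdTom- UMIs lay in cells outside the haemato-endothelial clusters, where *Gp9* had 2 UMIs in each fraction.

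The integrin chains went in opposite directions. *Itga2b* (chr11:102453297-102470122, minus strand, 30 exons) encodes the alpha IIb chain (CD41) of the fibrinogen receptor and is also an early marker of embryonic blood progenitors. It had 945 UMIs (5.63 CPM) in tdTom+ and 1637 UMIs (10.4 CPM) in tdTom- cells. The log2 fold was -0.89 (-1.01 to -0.77). *Itgb3* (chr11:104608000-104670476, plus strand, 15 exons) encodes the beta 3 chain, which also pairs with alpha V in other cells. It was higher in the tdTom+ library, with 1079 UMIs (6.42 CPM) against 578 UMIs (3.68 CPM), a log2 fold of 0.80 (0.66 to 0.95).

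Of the signalling and granule traffic genes, *Plek* (chr11:16971206-17052381, minus strand, 10 exons) encodes pleckstrin, a protein kinase C substrate of platelets and leukocytes. It overlaps *Cnrip1* and *Gm12014* on the other strand, and its spliced UMIs came to 59.7% of the UMIs that Cell Ranger gave it, against 94.96% or more for the other members, so its counts are uncertain too. It had 514 UMIs (3.06 CPM) in tdTom+ and 215 UMIs (1.37 CPM) in tdTom- cells. The log2 fold was 1.16 (0.93 to 1.40), and 1.04 (0.87 to 1.21) with unspliced UMIs added. *Rab27b* (chr18:69979131-70141605, minus strand, 7 exons), a small GTPase of granule secretion, had 854 and 692 UMIs (log2 fold 0.21, 0.06 to 0.36). *Nrgn* (chr9:37544492-37552904, minus strand, 4 exons) encodes neurogranin, a calmodulin-binding protein of neurons and platelets, and had 1590 and 1322 UMIs (log2 fold 0.17, 0.07 to 0.28). The differences of *Rab27b* and *Nrgn* were small beside that of *Plek*.

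The cells that carried the transcripts differed between the fractions. In tdTom- cells the megakaryocyte-like sub-cluster held 63.8% of the *Gp5*, 61.7% of the *Plek*, 48.3% of the *Pf4* and 47.3% of the *Rab27b* UMIs, although it was 59 of 8712 cells. In tdTom+ cells it held 25.6%, 12.7%, 10.9% and 23.1% of them, and the myeloid-like sub-clusters held 46.2%, 72.5%, 55.2% and 28.4%. *Itga2b* and *Itgb3* were mainly erythroid-like transcripts in tdTom- cells (67.8% and 66.1% of UMIs) and were spread over myeloid-like (34.8% and 43.2%) and blood progenitor-like (23.1% and 26.4%) cells in the tdTom+ fraction. *Pf4* also had a share in endothelial-like cells, 19.9% of its UMIs in tdTom+ and 31.3% in tdTom- cells. Of the *Nrgn* UMIs 34.8% and 32.7% lay outside the haemato-endothelial clusters, a share that *Gp1bb* exceeded.

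**Figure D1:**
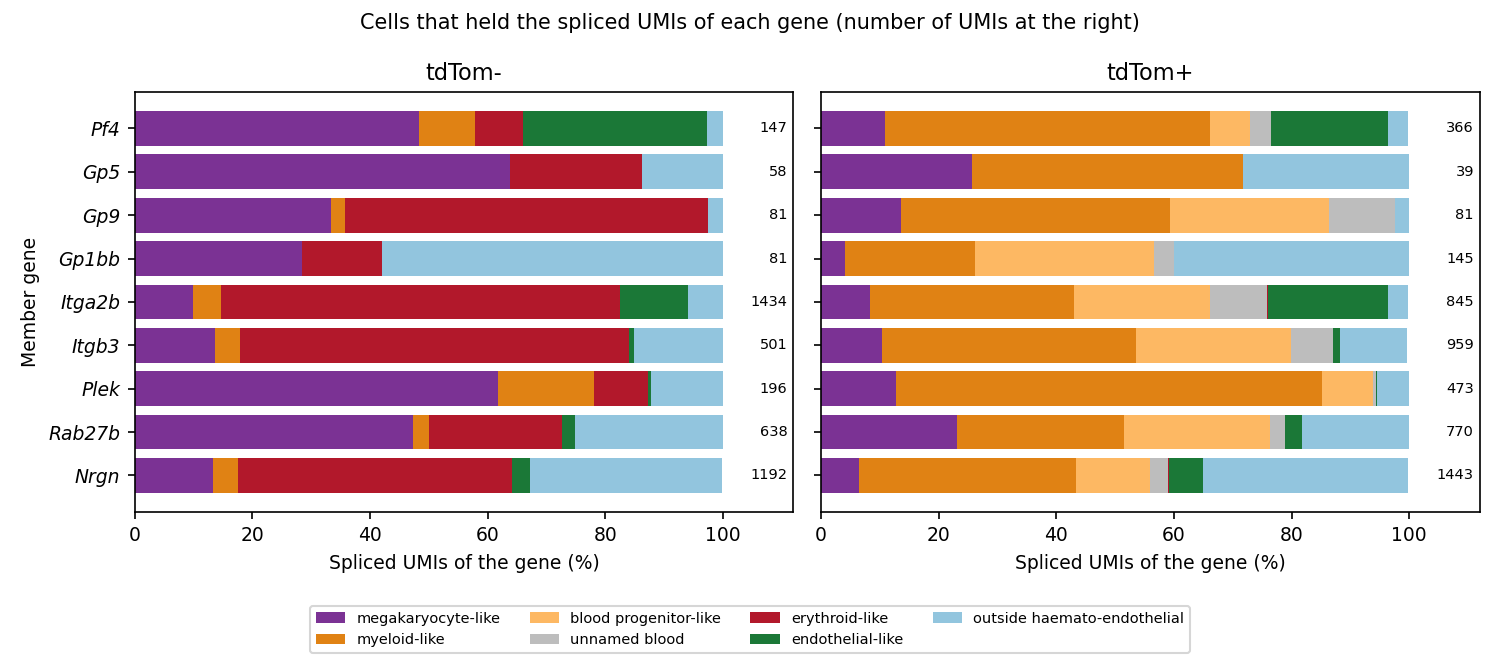
Share of each gene's spliced UMIs (percent) by cell class in tdTom+ and tdTom- cells, with the number of UMIs beside each bar; *Ppbp* and a small unnamed endothelial sub-cluster (at most 0.3%) are not drawn. Megakaryocyte-like cells hold 63.8% of *Gp5* UMIs in the tdTom- fraction and 25.6% in the tdTom+ fraction, and myeloid-like cells hold 72.5% of *Plek* UMIs in tdTom+ cells.

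Across the sub-clusters of both fractions the levels of 8 of the 10 genes peaked in the tdTom- megakaryocyte-like cells, with *Rab27b* at 293 CPM, *Nrgn* at 153 CPM, *Plek* at 118 CPM, *Pf4* at 68.9 CPM, *Gp5* at 35.9 CPM, *Gp9* at 26.2 CPM and *Gp1bb* at 22.3 CPM. *Itgb3* was the eighth (66.0 CPM), with the tdTom+ megakaryocyte-like (54.9 CPM) and the myeloid-like cells led by *Fcer1g* (51.6 CPM in tdTom+ and 49.9 CPM in tdTom-) close behind. *Itga2b* was not among them, since its 138 CPM in tdTom- megakaryocyte-like cells lay below the 154 CPM of the 28 tdTom- myeloid-like cells, and the intervals of these levels overlapped. *Gp5* had 0 UMIs in the endothelial-like and the blood progenitor-like sub-clusters.

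In the megakaryocyte-like sub-cluster *Pf4*, *Plek* and *Gp1bb* stood the other way round. There 8 of the 9 members tested were more than 2-fold lower in the 90 tdTom+ than in the 59 tdTom- cells. Of all 7420 genes tested, 4.89% were called lower and 2.17% higher in these cells, and 0 members were called higher. *Gp5*, *Gp9* and *Gp1bb* met the minimum of 20 UMIs only through the tdTom- cells, where they were high, so their calls are a description. The median log2 fold was -1.82 over the 9 members and -0.04 over all genes. The tdTom+ cells were the deeper ones, with a median of 19838.5 UMIs against 16651. Finer clustering kept 54 of the 59 tdTom- but 1 of the 90 tdTom+ cells megakaryocyte-like. The levels of the members and the kind of cell thus cannot be told apart here.

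*Gp5* showed one of the widest gaps, with 10 UMIs in the tdTom+ cells (5.55 CPM) and 37 in the tdTom- cells (35.9 CPM), a log2 fold of -2.70 (-3.87 to -1.66). *Gp9* had 11 and 27 UMIs (6.10 and 26.2 CPM, log2 fold -2.10, -3.26 to -1.05), and *Gp1bb* had 6 and 23 UMIs (3.33 and 22.3 CPM, log2 fold -2.75, -4.33 to -1.41). All 3 glycoprotein genes were thus lower by similar amounts, with wide intervals. At least 1 *Gp5* UMI was seen in 7.78% of the tdTom+ and 40.7% of the tdTom- cells of the sub-cluster, against 0.25% and 0.11% of cells with neural markers (median depths 16510.5 and 15113 UMIs), which should lack it.

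*Pf4* had 40 UMIs (22.2 CPM) in tdTom+ and 71 UMIs (68.9 CPM) in tdTom- megakaryocyte-like cells, a log2 fold of -1.64 (-2.23 to -1.06), and was detected in 26.7% and 45.8% of cells. *Ppbp* had 3 UMIs in the tdTom+ and 0 in the tdTom- cells, where 3 counts, taken as the limit that a count of 0 allows, come to 2.91 CPM, and no difference was detectable at this depth. *Itga2b* had 70 and 142 UMIs (38.8 and 138 CPM, log2 fold -1.83, -2.26 to -1.41). *Itgb3* did not follow its partner chain: it had 99 and 68 UMIs (54.9 and 66.0 CPM), a log2 fold of -0.27 with an interval from -0.73 to 0.20, and was detected in 61.1% and 59.3% of cells.

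*Plek* had 60 and 121 UMIs (33.3 and 118 CPM), a log2 fold of -1.82 (-2.29 to -1.36). *Rab27b*, the member with the most UMIs in these cells, had 178 and 302 (98.8 and 293 CPM), a log2 fold of -1.57 (-1.85 to -1.30), and was detected in 63.3% of tdTom+ and 89.8% of tdTom- cells. *Nrgn* had 93 and 158 UMIs (51.6 and 153 CPM, log2 fold -1.57, -1.96 to -1.19). The intervals of these 3 genes did not reach the interval of *Itgb3*.

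Since the finer clustering parted the fractions, each tdTom+ blood cell was also assigned by its 15 nearest tdTom- blood cells, to the sub-cluster that most of them came from. This matched 115 tdTom+ cells to the megakaryocyte-like sub-cluster, of which 65 came from the *Spi1*-led and 9 from the *Fcer1g*-led myeloid-like sub-cluster, 38 from the megakaryocyte-like one and 3 from a blood progenitor-like one. The same assignment returned 49 of the 59 tdTom- cells (83.1%) to their own sub-cluster. This used tdTom- cells only, so it does not show how well tdTom+ cells were matched. The *Spi1*-led sub-cluster held 1 tdTom- cell and the blood progenitor-like ones 0. The tdTom+ cells of these kinds thus had almost no tdTom- cells of their own kind to be matched to. In the matched cells 7 of the 9 members were called lower (4.68% of all 7821 genes) and 0 higher (3.98%), with a median log2 fold of -1.76 over the members. *Gp5* (16 and 37 UMIs), *Gp9* (13 and 27 UMIs) and *Gp1bb* (10 and 23 UMIs) met the minimum of 20 UMIs only through the tdTom- cells, so their calls are a description.

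*Gp5* (16 and 37 UMIs, log2 fold -2.38, -3.32 to -1.50) and *Itga2b* (79 and 142 UMIs, -2.02, -2.43 to -1.61) were lower in the matched tdTom+ cells. The 59 tdTom- cells and 38 of the 115 tdTom+ cells were the same as in the sub-cluster, so this is no separate result. *Pf4*, with 83 UMIs (35.8 CPM) in the 115 tdTom+ and 71 UMIs (68.9 CPM) in the 59 tdTom- cells, missed the 2-fold mark at a log2 fold of -0.94 (-1.42 to -0.47). *Itgb3* had 169 and 68 UMIs, a log2 fold of 0.14 (-0.27 to 0.57). The matched cells carried 819 CPM of the 7 myeloid markers summed, against 236 CPM in the tdTom- cells. Of the myeloid markers with enough UMIs 5 of 5 were called higher, where 3.98% of all 7821 genes were. Most matched cells came from myeloid-like sub-clusters, which were named with these same markers, so this count is a description. The part of the myeloid markers in the result was not tested.

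Other genes of the lineage were listed with earlier results of these data known. Of 26 further megakaryocyte genes 15 had at least 20 UMIs in the megakaryocyte-like sub-cluster, of which 11 were called lower and 0 higher in tdTom+ cells, beside the 4.89% and 2.17% of all genes given above, with a median log2 fold of -1.49 and a summed level of 1085 against 2582 CPM. *Thbs1*, which encodes the granule glycoprotein thrombospondin 1, had 6 tdTom+ and 60 tdTom- UMIs (log2 fold -4.13, -5.63 to -2.92). *Cavin2*, a caveolar protein gene listed as *Sdpr* in the files, had 1 and 19 UMIs (-5.06, -10.4 to -2.40), and *Clec1b*, the podoplanin receptor CLEC-2, had 5 and 24 (-3.07, -4.82 to -1.65). *Treml1* (-2.87), *Fermt3* (-1.73) and *Rasgrp2* (-1.53) were lower as well, and these 3 and *Clec1b* were also on the list of cell type markers. *Thbs1*, *Cavin2* and *Clec1b* met the minimum of 20 UMIs only through the tdTom- cells, where they were high, so their calls are a description. In an alternative chosen after seeing the data, without the 4 markers and the genes at exactly 20 UMIs, 6 of 9 were called lower. *Thbs1*, whose call is a description, was among these 6. Of the 4 other genes with at least 100 UMIs *F2r* and *Rap1b* were called lower, where 2.18% of all 3719 genes with that minimum were.

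Of the regulators of the lineage 11 of 13 were not called, and the same background of 4.89% lower and 2.17% higher holds for this and the following lists. Of the 13 regulators tested in the sub-cluster, *Gata1* itself was lower (43 tdTom+ and 148 tdTom- UMIs, log2 fold -2.59, -3.12 to -2.09) and *Gata2*, its relative of earlier progenitors, was higher (316 and 32 UMIs, 2.50, 1.97 to 3.07). The others were not called, among them the ETS factor genes *Erg* (26 and 8 UMIs, 0.89, -0.29 to 2.25) and *Etv6* (86 and 34 UMIs, 0.53, -0.06 to 1.15), *Fli1* (114 and 124 UMIs, -0.93, -1.31 to -0.55) and the homeobox gene *Meis1* (73 and 77 UMIs, -0.89, -1.37 to -0.40). The median over the 13 was -0.18. Of 7 progenitor genes 6 were tested and 5 were called higher in tdTom+ cells. They were *Gata2*, the stem cell factor receptor gene *Kit* (183 and 25 UMIs, 2.06, 1.46 to 2.73), *Cd44* (39 and 7 UMIs, 1.67, 0.49 to 3.08), *Myb* (243 and 65 UMIs, 1.09, 0.70 to 1.51) and the mast cell protease gene *Cpa3* (29 and 0 UMIs). *Cd44* and *Cpa3* met the UMI minimum only through the tdTom+ cells, where they were high, so their calls are a description.

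Marker sums for other cell types were given by the same cells. The 7 erythroid markers summed to 4387 CPM in tdTom+ and 4553 CPM in tdTom- megakaryocyte-like cells, with *Hba-a1* called higher and *Epor* called lower. The 6 blood progenitor markers summed to 541 and 238 CPM. The 3 of them called higher, *Kit*, *Gata2* and *Myb*, were progenitor genes already named above, so this is no separate result. The 7 myeloid markers summed to 262 and 236 CPM with *Spi1* called higher and *Fcer1g* lower. The 6 endothelial markers summed to 64.9 and 161 CPM with 3 called lower and *Emcn* at 0 UMIs in both fractions. The higher progenitor and lower endothelial sums moved with the lower levels of the members, and their part in the result was not tested.

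**Figure D2:**
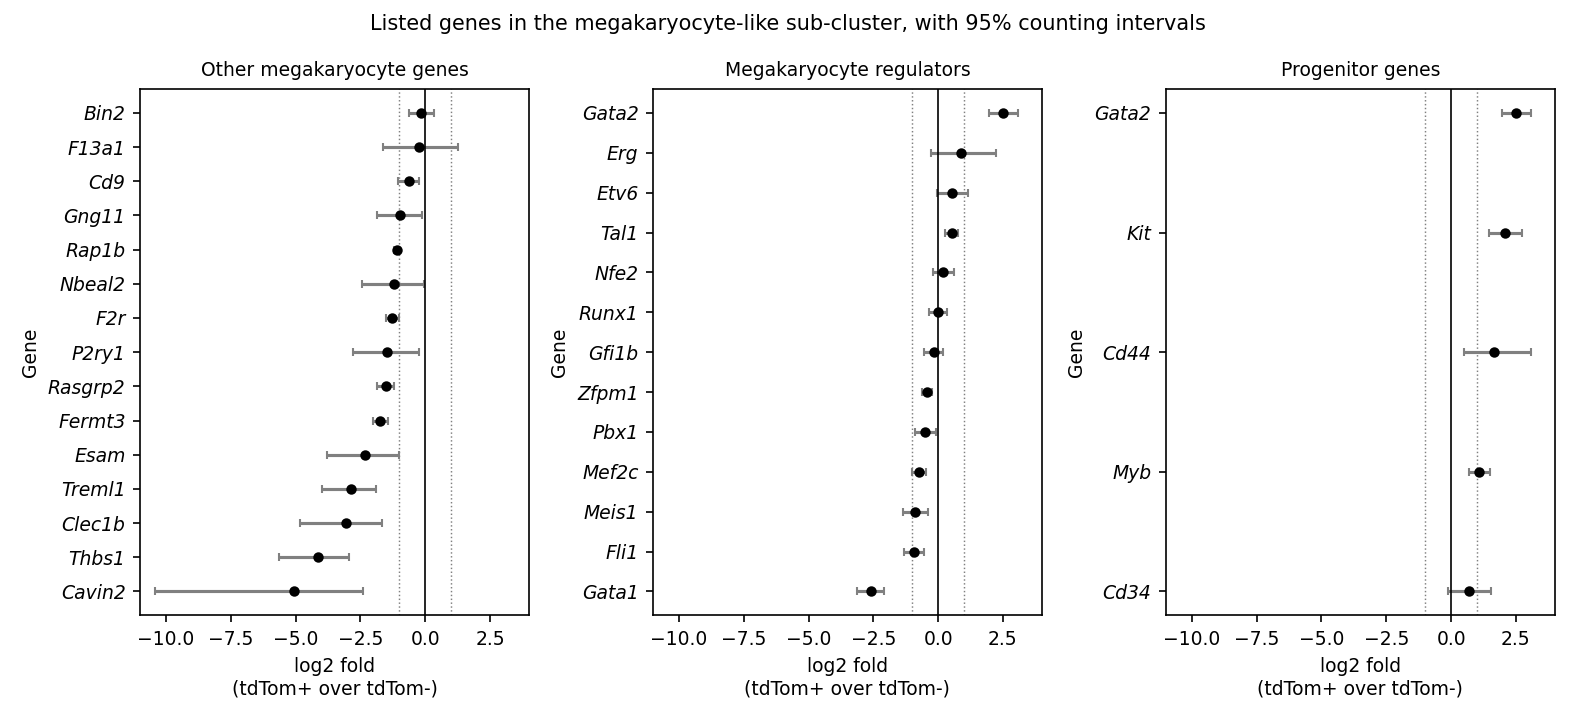
Log2 fold of tdTom+ over tdTom- cells with its 95% counting interval in the megakaryocyte-like sub-cluster, for further megakaryocyte genes, regulators and progenitor genes with at least 20 UMIs; dotted lines mark 2-fold. The megakaryocyte genes lie mostly below the lower dotted line (median -1.49), the regulators around 0 (median -0.18) and *Gata2* and *Kit* above the upper one (2.50 and 2.06).

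Over all blood cells, tdTom+ cells of mostly progenitor-like and myeloid-like kind were set against tdTom- cells that were mostly erythroid-like, and the members went in different directions. *Pf4* had 280 UMIs (7.98 CPM) in tdTom+ and 97 UMIs (3.40 CPM) in tdTom- blood cells, a log2 fold of 1.23 (0.90 to 1.58), *Plek* 446 and 171 UMIs (1.09, 0.83 to 1.35) and *Gp1bb* 87 and 34 UMIs (1.06, 0.47 to 1.68). *Itga2b* had 642 UMIs (18.3 CPM) and 1183 UMIs (41.4 CPM), a log2 fold of -1.18 (-1.32 to -1.04), and *Gp5* 28 and 50 UMIs (-1.13, -1.86 to -0.44). These were 3 of 9 members called higher, where 14.9% of 11824 genes were, and 2 called lower, where 3.76% were. The median of all genes was itself raised, at a log2 fold of 0.25.

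The mix of cells differed between the arms of this comparison, and the values moved with it. Leaving out the erythroid-like cells, an alternative chosen after seeing the data, left 1618 tdTom+ cells, of which 90 were megakaryocyte-like, and 89 tdTom- cells, of which 59 were. In these, 9 of the 9 members were called lower in tdTom+ cells, where 11.3% of 11260 genes were called lower and 2.48% higher and the median of all genes was -0.16. The log2 folds were -2.84 for *Pf4*, -3.01 for *Plek* and -2.64 for *Gp1bb*, and the levels of the members and the mix of cells cannot be told apart here. Under median-of-ratios scaling, which took the median of all genes to 0.02, *Pf4* stayed called higher at 1.01, while *Plek* at 0.86 and *Gp1bb* at 0.84 fell short of 2-fold.

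In other sub-clusters held by both fractions few members were called. In the 203 tdTom+ and 28 tdTom- myeloid-like cells led by *Fcer1g*, 7 members had enough UMIs, and 1 was called lower (2.7% of 8524 genes) and 0 higher (2.65%). The member called was *Itga2b*, with 238 UMIs (61.7 CPM) and 68 UMIs (154 CPM), a log2 fold of -1.32 (-1.71 to -0.91). *Pf4* had 141 and 14 UMIs (36.6 and 31.7 CPM, log2 fold 0.20, -0.59 to 1.11), and *Gp1bb* had 0 UMIs in both fractions there. The *Spi1*-led myeloid-like cells, 219 tdTom+ and 1 tdTom-, allowed no comparison. They carried *Itgb3* at 43.9 CPM, *Nrgn* at 26.8 CPM, *Plek* at 25.1 CPM, *Rab27b* at 21.5 CPM, *Pf4* at 12.5 CPM and *Gp1bb* at 6.54 CPM.

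Endothelial-like cells held UMIs of *Pf4* and *Itga2b* and 0 UMIs of *Gp5*, *Gp9* and *Gp1bb*. *Nrgn* was at 5.90 CPM (tdTom+) and 4.68 CPM (tdTom-) in the *Etv2*-led endothelial-like cells, near its 5.60 and 4.99 CPM in cells with neural markers. In the *Lyve1*-led sub-cluster (136 tdTom+ and 85 tdTom- cells) *Nrgn* was higher in tdTom+ cells, with 42 and 11 UMIs (log2 fold 1.17, 0.18 to 2.27), and was the 1 of 4 members called higher, where 1.01% of 8157 genes were called higher and 1.48% lower. *Itga2b* was at 48.2 and 73.8 CPM there (-0.61, -1.04 to -0.19). In the *Emcn*-led sub-cluster (87 and 80 cells) *Pf4* had 19 UMIs (14.1 CPM) in tdTom+ and 1 UMI (0.907 CPM) in tdTom- cells, at a log2 fold of 3.96 with a wide interval from 1.30 to 9.33. Its 20 UMIs met the minimum only through the tdTom+ cells, so the call is a description, beside 1.14% of 7563 genes called higher and 1.18% lower. In the *Etv2*-led sub-cluster (255 and 190 cells) *Pf4* had 30 and 27 UMIs (6.32 and 7.90 CPM, -0.32, -1.12 to 0.48), and in the *Lyve1*-led cells 24 and 18 (11.5 and 14.6 CPM, -0.35, -1.29 to 0.62), with intervals that included 0.

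*Itga2b* was compared in further groups. Beside the myeloid-like and megakaryocyte-like cells, its log2 fold was -0.61 in the *Lyve1*-led, -0.67 (-2.02 to 0.63) in the *Emcn*-led and -0.52 (-1.05 to 0.01) in the *Etv2*-led endothelial-like cells. Outside the haemato-endothelial clusters, where 0.45% of tdTom+ and 1.18% of tdTom- cells had a UMI, it was at 0.272 and 0.783 CPM (30 and 84 UMIs, -1.52, -2.18 to -0.91). In cells with neural markers it had 6 tdTom+ and 19 tdTom- UMIs (0.290 and 0.644 CPM, -1.15, -2.77 to 0.23). These levels were like those over all cells outside the haemato-endothelial clusters. Both may be background, which was not tested.

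At the full depth of each library co-expressing cells were more frequent in the tdTom+ fraction, at 3.98% (exact Clopper-Pearson 95% interval 3.58% to 4.42%) of 8566 cells against 2.07% (1.78% to 2.39%) of 8712 cells. Their median depth was 22416 UMIs in tdTom+ and 19923.5 UMIs in tdTom- cells. With each cell thinned to 5000 UMIs the shares lay closer together, at 0.725% and 0.611%. Thinning left out 150 tdTom+ and 370 tdTom- cells of lower depth. Of the blood cells outside erythroid-like sub-clusters, a denominator chosen after seeing the data, 20.3% of tdTom+ and 78.7% of tdTom- cells were co-expressing, so the order depended on the cells counted. The order turned with the number of genes asked for: at least 4 genes were found in 179 tdTom+ and 87 tdTom- cells, at least 5 in 72 and 51, at least 6 in 23 and 36, and at least 7 in 8 and 21 cells. The cell with the most had 7 of the 10 genes in the tdTom+ and 9 in the tdTom- fraction.

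The co-expressing cells were of different kinds. In the tdTom+ fraction 190 of the 341 (55.7%) were myeloid-like, 75 (22.0%) blood progenitor-like and 57 (16.7%) megakaryocyte-like. In the tdTom- fraction 104 of the 180 (57.8%) were erythroid-like, 50 (27.8%) megakaryocyte-like and 20 (11.1%) myeloid-like. Outside the haemato-endothelial clusters 5 tdTom+ and 2 tdTom- cells co-expressed the genes. Of the cells with at least 6 genes, 31 of 36 tdTom- cells were megakaryocyte-like, against 10 of 23 tdTom+ cells, where 13 were myeloid-like.

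Within the megakaryocyte-like sub-cluster the share of co-expressing cells was 63.3% (52.5% to 73.2%) in tdTom+ and 84.7% (73.0% to 92.8%) in tdTom- cells, and the share with at least 6 genes 11.1% (5.46% to 19.5%) and 52.5% (39.1% to 65.7%). Pairs of genes were compared in the same cells. Of the cells with an *Itgb3* UMI, 27 of 55 tdTom+ cells (49.1%, 35.4% to 62.9%) and 33 of 35 tdTom- cells (94.3%, 80.8% to 99.3%) also had one of *Itga2b*, against 42.9% and 66.7% of the cells without *Itgb3*. Of the cells with a *Pf4* UMI, 13 of 24 tdTom+ cells (54.2%, 32.8% to 74.4%) and 22 of 27 tdTom- cells (81.5%, 61.9% to 93.7%) also had *Plek*, against 37.9% and 59.4% of the cells without *Pf4*. *Itgb3* was found in 17 of 24 tdTom+ (70.8%) and 19 of 27 tdTom- cells (70.4%) with *Pf4*. Over the 81 ordered pairs whose first gene was detected in both fractions, the share of cells with the second gene was lower in tdTom+ cells in 65 pairs and higher in 12, and these pairs share genes and cells. Most members by themselves were detected in a smaller share of the tdTom+ cells here. The count of pairs is thus a description and no separate result on co-expression. *Gp9* and *Gp5* were found together in 1 tdTom+ and 7 tdTom- cells.

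Among the co-expressing cells 3 of the 9 members tested were called lower in tdTom+ cells, where 3.19% of 9946 genes were, and 0 higher, where 7.37% were; the members' own detection chose these cells, so these counts are a description. *Itga2b* had 400 UMIs (50.2 CPM) in tdTom+ and 391 UMIs (103 CPM) in tdTom- co-expressing cells and was found in 228 of 341 and 171 of 180 of them. *Gp5* had 27 and 44 UMIs (3.39 and 11.6 CPM, in 5.87% and 16.1% of cells), and *Gp9* had 45 UMIs in each (5.65 and 11.9 CPM, in 11.1% and 19.4% of cells). *Plek* was found in 51.6% and 34.4% and *Pf4* in 36.7% and 26.1% of the co-expressing cells, so the tdTom+ cells reached 3 genes more often with *Plek* and *Pf4* and the tdTom- cells with *Itga2b*.

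Genes outside the list also differed between the co-expressing cells. Of the 7057 other genes with at least 100 UMIs, 334 were higher and 156 lower in tdTom+ cells. The highest folds included *Slc32a1* (505 and 8 UMIs, log2 fold 4.91), *Arhgap9*, *Pdyn*, *Sox6*, *Plac8*, *Gsn*, the proteoglycan gene *Srgn* (355 and 10 UMIs, 4.08) and the myeloperoxidase gene *Mpo* (317 and 9 UMIs, 4.07). Lower were *Xist*, *Cdkn1c* (3 and 201 UMIs, -7.14), *Prss50* (0 and 109 UMIs), the band 3 gene *Slc4a1* (4 and 115 UMIs, -5.91), *Grb10* (20 and 558 UMIs, -5.87), *Add2* and the embryonic globin gene *Hba-x* (-4.93). Some of these gaps were also present in cells with neural markers, and so were not particular to the co-expressing cells. There *Xist* was at 5.56 and 334 CPM, *Cdkn1c* at 4.49 and 118 CPM, *Grb10* at 7.87 and 277 CPM and *Hba-x* at 57.7 and 497 CPM. *Slc4a1* (0.0483 and 1.53 CPM) and *Add2* (0.0483 and 0.441 CPM) differed at low levels, and *Prss50* was at 1.45 and 2.00 CPM. Of the co-expressing cells 104 of 180 tdTom- but 0 of 341 tdTom+ cells were erythroid-like. *Slc32a1* led sub-clusters of nearly only tdTom+ cells. The part of this mix in the folds was not tested. Of the further megakaryocyte genes 18 were tested, with *Bin2* (2.37) and *Nbeal2* (1.11) higher and 5 lower, and the 6 tested progenitor genes were all higher, beside the 7.37% higher and 3.19% lower of the 9946 genes with at least 20 UMIs.

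The genes also differed in how much of their RNA was unspliced. Over both libraries *Plek* had 46.2% unspliced UMIs, *Rab27b* 35.0%, *Itgb3* 24.9%, *Itga2b* 14.9%, *Gp5* 9.48%, *Nrgn* 3.42% and *Pf4* 1.38%, against 13.2% over all genes, and *Gp9*, *Gp1bb* and *Ppbp* had 0 unspliced UMIs. In blood cells the unspliced share of *Plek* was 40.1% (36.5% to 43.7%) in tdTom+ and 27.8% (22.2% to 34.0%) in tdTom- cells. Both lay below its share over both libraries, and the doubt over its counts given above holds here too. The share of *Itgb3* in blood cells was 23.4% (20.9% to 26.0%) and 29.9% (26.3% to 33.8%). For *Itga2b* the intervals overlapped, at 12.8% (10.4% to 15.4%) and 12.2% (10.48% to 14.0%).

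The non-member genes whose levels across the sub-clusters were most like the mean of the members were *I830077J02Rik* (Pearson's r 0.978), *Fyb* (0.967), *Lgals9* (0.958), *Rap1b* (0.945), *Sla2* (0.919), *Elf1* (0.914), *Stxbp5* (0.912), *Etfb* (0.899) and *Btk* (0.893), on log2(CPM + 10) over 20 points, each a sub-cluster of 1 fraction, among 10289 genes. The points share 2 libraries, and the values are a description. Of the members themselves *Rab27b* (0.960), *Plek* (0.950), *Nrgn* (0.937) and *Gp9* (0.916) were closest to the mean and *Ppbp* (0.322) was farthest.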

How the data were processed

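Droplet-based scRNA-Seq was analysed in 1 tdTom+ and 1 tdTom- library. The authors aligned the reads to mm10 (GRCm38) with Cell Ranger 3.0.2 per the labels' processing notes, split them into spliced and unspliced molecules with velocyto, and deposited both layers as raw UMI counts that were not normalized. The percent of mitochondrial UMIs comes from the deposited quality metrics. Cell types and comparisons of the authors were not used.

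Doublets were called with Scrublet per library. Cells were clustered (Leiden resolutions 1.5 and 1) without the 10 members, and tdTom+ blood cells were matched to tdTom- cells by Euclidean distance. UMIs were summed per group and fraction, scaled as CPM, and compared by a log2 fold with an exact conditional 95% interval, code tested on simulated data. Genes were named by rule: all members; of each list the 3 largest folds per direction among genes with at least 20 UMIs; the 8 per direction between co-expressing cells; and the 10 most like the members. *Treml1*, *Fermt3* and *Rasgrp2*, which named the sub-cluster, were added. Members and lists were chosen with earlier results of these data known. Some genes are not reported here. Gene models were GENCODE M21, with promoter windows from RefSeq. Alternatives concerned scaling, layers, doublets, thinning, matching and thresholds. Python 3.11.15, numpy 2.4.6, scipy 1.17.1, pandas 2.3.3, scanpy 1.11.5 and leidenalg 0.10.2 were used.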

Additional observations from a re-analysis of the deposited data

Results flagged for a closer look

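For 5 members the log2 fold of tdTom+ over tdTom- cells lay above 0 over all barcodes and below 0 in the megakaryocyte-like sub-cluster, with intervals on opposite sides of 0. The values were 1.17 and -1.64 for *Pf4*, 1.16 and -1.82 for *Plek*, 0.72 and -2.75 for *Gp1bb*, 0.21 and -1.57 for *Rab27b*, and 0.17 and -1.57 for *Nrgn*. The cells of the sub-cluster are part of the barcodes, there is 1 library per fraction, and the difference between the contrasts was not tested.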

How the results depend on the processing

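No paired analysis was possible because each fraction has 1 library, and the replicate numbers came from accession order. For the same reason no library could be left out. Over all barcodes 8 of 8 counts and 36 of 36 folds of members kept their side under every scaling, layer and doublet setting tried. In blood cells the 3 members called higher became 1 under median-of-ratios scaling and 1 with a total free of haemoglobin and mitochondrial genes, which took the median of all genes from 0.25 to 0.02 and 0.13. Without erythroid-like sub-clusters, a choice made after seeing the data, the count became 0 and the 2 members called lower became 9, with *Pf4* at -2.84, *Gp1bb* at -2.64 and *Plek* at -3.01; the construction leaves 89 tdTom- cells. In matched cells the 7 members called lower became 4 when each cell was thinned to 5000 UMIs, which leaves fewer counts, and the other 15 of 16 counts stayed within 1.5 times, while of 72 folds of members 61 stayed within the interval, 11 moved beyond it and 0 turned. Cosine distance matched 219 tdTom+ cells and the finer clustering 114.

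The share of co-expressing cells, 3.98% in tdTom+ and 2.07% in tdTom- cells, was 7.94% and 6.12% for at least 2 genes, 2.09% and 0.999% for at least 4, 0.841% and 0.585% for at least 5, 1.00% and 0.746% with 2 UMIs per gene, 0.725% and 0.611% after thinning, 4.67% and 2.46% with unspliced UMIs, 2.91% and 1.08% without *Itga2b*, 20.2% and 11.8% of blood cells, and 20.3% and 78.7% of blood cells outside erythroid-like sub-clusters, the last chosen after seeing the data. The 334 genes higher and 156 lower between co-expressing cells became 733 and 314 with at least 20 UMIs, 804 and 435 with no filter, 123 and 97 with at least 4 genes, and 23 and 53 within the megakaryocyte-like sub-cluster. The unspliced share of all members was 20.5% in tdTom+ and 19.1% in tdTom- cells, and 19.4% and 17.04% in blood cells. Where no construction above shows it, the cause was not tested. Depth limits *Ppbp*, *Gp5*, *Gp9* and *Gp1bb* most, whose UMIs in the megakaryocyte-like sub-cluster number 0 to 37 per fraction.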

Other observations

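In the megakaryocyte-like sub-cluster several genes of no list, each with 100 UMIs or more, were far apart between the fractions. *Grb10*, an imprinted gene, had 4 UMIs in the 90 tdTom+ and 151 in the 59 tdTom- cells (log2 fold -6.05, -7.94 to -4.66), and *Xist* had 7 and 186. Higher in tdTom+ cells were the growth factor gene *Fgf3* (261 and 23 UMIs, 2.70, 2.08 to 3.38), the WNT agonist gene *Rspo3* (177 and 17 UMIs, 2.57, 1.85 to 3.38) and *Slc32a1* (135 and 0 UMIs). These genes were chosen after their values were seen. The gaps of *Grb10* and *Xist* were not particular to these cells: in cells with neural markers, where *Gata1* was at 0.483 CPM in the tdTom+ and 1.42 CPM in the tdTom- fraction, *Grb10* was at 7.87 and 277 CPM and *Xist* at 5.56 and 334 CPM.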
